A study of Mus musculus with 19 samples.

Results

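*Nos1* and 4 genes of the cyclic GMP pathway downstream of nitric oxide were followed through RNA-seq of the brains of mice heterozygous for a mutation of *Wiz*, a zinc finger protein that partners the histone methyltransferases G9a and GLP. The 5 genes, *Nos1*, *Gucy1a2*, *Prkg1*, *Prkg2* and *Pde5a*, were found by symbol among 41388 Ensembl gene identifiers, and all 5 had enough reads to be tested in every comparison. They were chosen by the measured level of *Nos1*, which was higher in mutant than in wildtype cerebellum, and as genes of the pathway it feeds. The genotype difference in the cerebellum is therefore given as a description for the 5 genes, without a p-value. The embryonic brains, whose levels that choice did not use, are tested, and so is the contrast between tissues for the genes other than *Nos1*. Earlier results of these data were known when the genes were chosen.

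The 16 samples came from mice of the FVB strain. Cerebellums of adult males aged 56 days were taken from 3 Wiz+/+ and 3 WizMommeD30/+ animals, whole brains of male embryos at 13.5 days post coitum (E13.5) from 3 and 3, and whole brains of female embryos of the same age from 2 and 2. Wiz+/+ mice carry 2 wildtype alleles and WizMommeD30/+ mice carry 1 wildtype allele and 1 allele from a chemical (ENU) mutagenesis screen. The line was kept by crossing to a strain homozygous for a multicopy GFP transgene under human α-globin regulatory elements, so that this transgene is shared background and not a difference between the groups. In a whole tissue, fewer cells of a type and less RNA per cell cannot be told apart.

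Nitric oxide synthases make nitric oxide from arginine. *Nos1* encodes the neuronal enzyme, which calcium and calmodulin switch on and which is abundant in the granule cells and molecular layer interneurons of the cerebellum. Nitric oxide diffuses into neighbouring cells and binds soluble guanylyl cyclase, a dimer of an α and a β subunit, and *Gucy1a2* encodes the less widespread of the α subunits. The cyclic GMP made there acts through cyclic GMP-dependent kinases: *Prkg1* encodes the soluble kinase, found in Purkinje cells and smooth muscle, and *Prkg2* the membrane-anchored one. *Pde5a* encodes a phosphodiesterase specific for cyclic GMP, which ends the signal. In the cerebellum this pathway is best known for its part in long-term depression at the synapses of parallel fibres onto Purkinje cells.

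The 5 genes lie apart from each other in the genome (GRCm38 coordinates, GENCODE M21). *Nos1* (ENSMUSG00000029361) lies at chr5:117781032-117958840 on the plus strand, *Gucy1a2* (ENSMUSG00000041624) at chr9:3532778-3894736 on the plus strand, *Prkg1* (ENSMUSG00000052920) at chr19:30564489-31765033 on the minus strand, *Prkg2* (ENSMUSG00000029334) at chr5:98929773-99037351 on the minus strand, and *Pde5a* (ENSMUSG00000053965) at chr3:122728947-122859374 on the plus strand. Exons of *Nos1* share 268 bases with Gm26995, and exons of *Pde5a* share 55 bases with 4930447N08Rik, both on the opposite strand. Whether reads were counted by strand is not given in the sources used here, so over these bases the reads of the gene and of its partner cannot be told apart.

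The sequences before the starts of *Nos1* and *Gucy1a2* are shown because these are the members that stood higher in mutant cerebellum. Each is the 250 bases before a transcript start on the gene's own strand, and capitals mark CG dinucleotides. The *Nos1* window, chr5:117841600-117841849, was read from GRCm38.p6 before the start of the longest protein-coding transcript, Nos1-206, and overlaps no exon of the gene. It lies within the span of the gene, which begins at 117781032 with other transcripts. The *Gucy1a2* window, chr9:3532099-3532348, is that before the RefSeq start in the same build. This start differs from the GENCODE start of the gene, 3532778, which lies further along.
Nos1: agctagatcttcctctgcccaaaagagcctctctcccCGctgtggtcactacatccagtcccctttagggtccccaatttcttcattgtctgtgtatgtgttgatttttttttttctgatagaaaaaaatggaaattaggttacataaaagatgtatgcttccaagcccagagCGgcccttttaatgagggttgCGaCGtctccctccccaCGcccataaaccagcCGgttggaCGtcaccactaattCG
Gucy1a2: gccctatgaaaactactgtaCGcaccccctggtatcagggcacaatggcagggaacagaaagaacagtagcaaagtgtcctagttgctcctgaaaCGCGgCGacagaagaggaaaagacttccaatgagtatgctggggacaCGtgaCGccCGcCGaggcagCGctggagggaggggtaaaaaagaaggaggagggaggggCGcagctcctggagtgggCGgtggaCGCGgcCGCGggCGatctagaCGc
The *Nos1* window holds 8 CG dinucleotides and the *Gucy1a2* window 17, against a median of 6 over 32817 windows of this length before RefSeq starts. The *Prkg1* windows hold 9 and 16 (it has 2 RefSeq starts) and the *Pde5a* window 22. *Prkg2* had no window. The RefSeq start of *Nos1* is 24989 bases further into the gene, where 4 of the 7 GENCODE transcripts have an internal exon, and the window before it, which those transcripts splice out, holds 6.

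The libraries held 16386029 to 50459755 counted reads, the second male Wiz+/+ brain being the shallowest. Levels are given as CPM, read counts scaled to a common library size, with trimmed mean of M-values (TMM) factors of 0.9063 to 1.067. *Wiz* itself was lower in every mutant sample than in any wildtype sample of the same tissue and sex: 73.87 against 104.9 CPM in cerebellum, 115.7 against 180.1 in male brain and 120.8 against 179.9 in female brain (means of n = 3, 3 and 2 per genotype). The labelled tissues had their markers. Summed levels of 5 Purkinje cell genes were 2636 to 2807 CPM in cerebellum and 33.62 to 39.75 in E13.5 brain, and those of 5 forebrain genes were at most 0.4694 CPM in cerebellum, with up to 3 of the 5 at 0, and at least 301.2 CPM in E13.5 brain.

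*Nos1* stood 1.32-fold higher in mutant than in wildtype cerebellum. Its levels in the 3 Wiz+/+ cerebellums were 337.8, 360.2 and 328.3 CPM, and in the 3 WizMommeD30/+ cerebellums 444.3, 442.8 and 465.4 CPM. The groups did not overlap, and the lowest mutant lay above the highest wildtype sample by more than either group's spread. *Nos1* was chosen for this difference, so that the gap only describes these samples. The log2 fold change was 0.40 (SE 0.034), just past the fold change of 1.3 that the study set as its threshold. Without the third Wiz+/+ cerebellum it was 0.37 and fell short of that threshold.

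**Figure D1:**
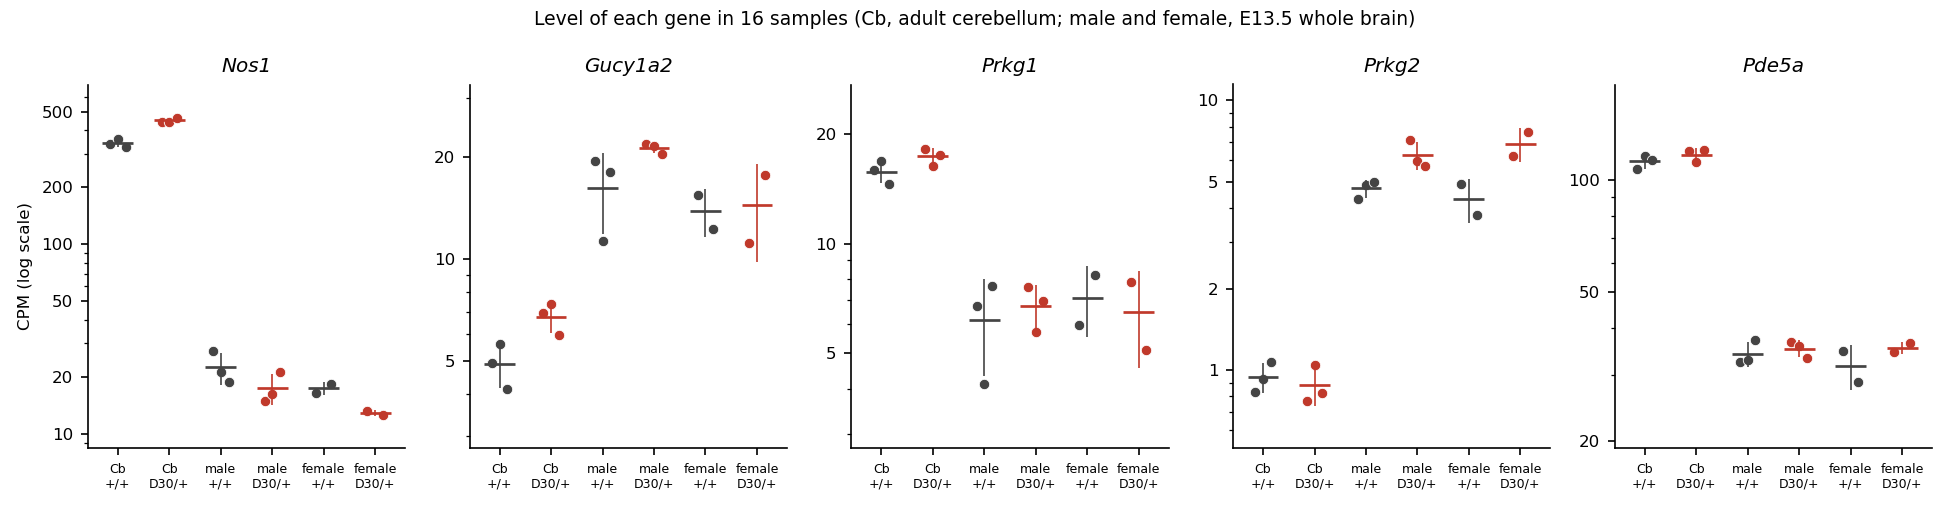
Level of each gene in every sample, in CPM on a log axis whose range differs between panels. Points are samples, horizontal lines means and vertical lines 1 SD, with Wiz+/+ in grey and WizMommeD30/+ in red. *Nos1* is the only panel in which the mutant cerebellums are higher while the mutant brains of both sexes have lower means (450.8 against 342.1 CPM in cerebellum, 17.44 against 22.5 in male and 12.9 against 17.42 in female brain).

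Of the other 4 genes, *Gucy1a2* also stood higher in mutant cerebellum. Its levels were 4.946, 5.601 and 4.142 CPM in Wiz+/+ and 6.931, 7.376 and 5.973 CPM in WizMommeD30/+ cerebellums, from 116 to 198 reads per sample. The groups did not overlap, but the highest wildtype and the lowest mutant sample were close. The log2 fold change was 0.47 (SE 0.12). *Gucy1a2* passed the thresholds (edgeR adjusted p up to 0.05, with a fold change below 0.7 or above 1.3) in 2 of the 6 fits that left out a sample, and it did not pass them in the DESeq2 test.

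The kinases and the phosphodiesterase were at nearly the same level in both genotypes of cerebellum. *Prkg1* had 15.92, 16.84 and 14.6 CPM in wildtype and 18.25, 16.39 and 17.56 CPM in mutant samples, which overlap (log2 fold change 0.14, SE 0.0687). *Pde5a*, with 106.5, 116 and 113.1 against 119, 111.5 and 119.8 CPM, also overlapped (log2 fold change 0.07, SE 0.0394). *Prkg2* was barely present, at 20 to 30 reads per sample. Its levels of 0.8304, 0.9273 and 1.071 CPM in wildtype and 0.7701, 1.043 and 0.8226 CPM in mutant samples overlapped (log2 fold change −0.10, SE 0.233), and the interval, −0.59 to 0.39, was wide at this depth.

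The main subunits of the nitric oxide receptor did not pass the thresholds. *Gucy1b1*, the β subunit common to both known receptor dimers, had a log2 fold change of 0.02 (SE 0.0334, adjusted p = 0.784, edgeR quasi-likelihood test), and *Gucy1a1*, the commoner α subunit, of 0.01 (SE 0.0367, adjusted p = 0.927). Over a list of 80 genes of nitric oxide and cyclic GMP signalling, 79 were matched and 62 were tested in cerebellum. *Nos1* was chosen by this contrast and *Gucy1a2* with it as a pathway gene, so that nothing is read from either. Besides these, *Arg1* was the only list gene past the thresholds, and it was higher. Of the 15979 genes tested 0.832% passed them (0.532% higher and 0.3% lower). The median log2 fold change of the list was 0.01, and that of all genes tested 0.00 (−0.00311).

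*Arg1*, which encodes an arginase and so draws on the same substrate as nitric oxide synthases, was 2.844 ± 0.211 CPM in wildtype and 5.932 ± 0.748 CPM in mutant cerebellum (SD, n = 3). The ranges, 2.6 to 2.967 and 5.121 to 6.594 CPM, did not overlap, and the log2 fold change was 1.06 (SE 0.126, edgeR adjusted p = 0.000143). By the adjusted p without a fold threshold 6 of the 62 list genes passed, and 5.25% of all genes tested. The 6 include *Nos1*, which was chosen by this contrast, *Gucy1a2* and *Arg1*. The other 3 were *Nos3*, *Pde3b* and *Pde1c*. *Nos3*, the endothelial nitric oxide synthase, was lower in the mutants, with a fold change of 0.725 (log2 −0.46, SE 0.0922, edgeR adjusted p = 0.00817), from 12.19 ± 1.33 to 8.809 ± 0.751 CPM. The phosphodiesterase gene *Pde3b* had a log2 fold change of 0.18 (edgeR adjusted p = 0.0164) and *Pde1c*, which encodes a calmodulin-activated phosphodiesterase, of −0.18 (edgeR adjusted p = 0.0339). No gene of the 6 for tetrahydrobiopterin, the cofactor of nitric oxide synthases, nor of the 10 regulators and partners of these enzymes passed the thresholds in cerebellum.

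Markers of blood were higher in the mutant cerebellums, and most other cell type markers did not pass the thresholds. Summed levels were 2636 to 2692 and 2697 to 2807 CPM for 5 Purkinje cell genes, 5218 to 5299 and 5124 to 5359 CPM for 5 granule cell genes, and 1373 to 1416 and 1395 to 1441 CPM for 6 genes of inhibitory interneurons, in wildtype and mutant samples in turn. No gene of these 3 lists passed the thresholds, although the Purkinje cell sums did not overlap. Sums of 5 young neuron genes did not overlap either, at 718.9 to 746 CPM in wildtype and 665.1 to 699 CPM in mutant samples, with no gene past the thresholds. Sums of so few samples can lie apart by chance, so that such a gap alone sets no cell type apart. Of 5 blood genes, 4 were past them and higher, with sums of 160 to 249.1 CPM in wildtype and 290.5 to 528.1 CPM in mutant cerebellum, and of 4 tested brainstem neuron genes 1 was past them and lower, with overlapping sums (6.046 to 7.606 and 4.967 to 7.004 CPM). The part of these cells in the differences of *Nos1*, *Gucy1a2* and *Arg1* was not tested.

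In E13.5 brain *Nos1* was not higher in the mutants. In male brains its levels were 27.33, 21.31 and 18.85 CPM in Wiz+/+ and 14.98, 16.21 and 21.13 CPM in WizMommeD30/+ embryos. The groups overlapped, and the third mutant was level with the middle wildtype sample. The log2 fold change was −0.39 (SE 0.14, edgeR adjusted p = 0.485). Without the first Wiz+/+ brain it was −0.19, and over the 6 fits that each left out a sample it ran from −0.55 to −0.19. In male brain no gene of the list passed the thresholds, which 0.184% of 16848 genes did (0.0178% higher and 0.166% lower).

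In female brains *Nos1* had 16.42 and 18.43 CPM in Wiz+/+ and 13.22 and 12.59 CPM in WizMommeD30/+ embryos. Both mutants were below both wildtype samples, with a log2 fold change of −0.43 (SE 0.0974, edgeR adjusted p = 0.635). No list gene passed the thresholds, against 0.111% of 17152 genes. With both sexes in a single fit and sex as a covariate the log2 fold change was −0.40 (SE 0.104, interval −0.63 to −0.18, edgeR adjusted p = 0.153). Its fold change of 0.757 is short of 0.7, so that *Nos1* could not have passed the thresholds at any adjusted p. Over 7 other settings its adjusted p in this fit ran from 0.0173 to 0.302.

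**Figure D2:**
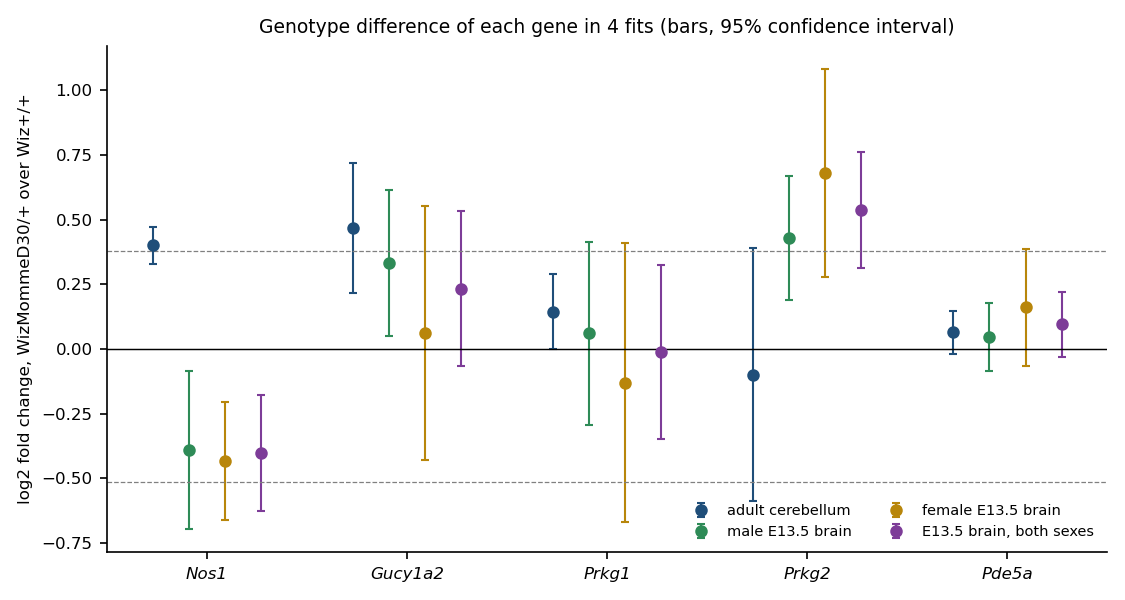
Log2 fold change of WizMommeD30/+ over Wiz+/+ for each gene in 4 fits, with 95% confidence intervals. Dashed lines mark fold changes of 0.7 and 1.3. In cerebellum the intervals are a description, since *Nos1* was chosen there. *Nos1* lies above 0 in cerebellum (0.40) and below 0 in the 3 brain fits (−0.39, −0.43 and −0.40), and *Prkg2* lies above 0 in the brain fits (0.43, 0.68 and 0.54).

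The genotype difference of *Nos1* in cerebellum was therefore 0.81 higher on the log2 scale than in male brain (SE 0.146). No p-value is given, since the cerebellum value chose the gene, and without the first male Wiz+/+ brain, the brain with the most *Nos1*, the difference was 0.58. In that test 0.173% of 17337 genes passed the thresholds (0.133% higher and 0.0404% lower) and 0.26% the adjusted p alone, and none of the other 4 genes did.

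*Prkg2* was the gene of the list that stood out in the embryos. In male brains its levels were 4.31, 4.865 and 4.988 CPM in wildtype and 7.137, 5.965 and 5.726 CPM in mutant embryos, and in female brains 4.883 and 3.75 CPM against 6.207 and 7.639 CPM. Every mutant lay above every wildtype sample of its sex. How many of all genes lay apart by genotype was not counted, so that such a gap sets no gene apart. Neither sex alone passed the thresholds (log2 fold change 0.43, SE 0.11, edgeR adjusted p = 0.249 in males, and 0.68, SE 0.173, edgeR adjusted p = 0.773 in females). Over both sexes *Prkg2* rose by 0.54 on the log2 scale (SE 0.103, interval 0.31 to 0.76, edgeR adjusted p = 0.0393), and it was the only one of 65 list genes past the thresholds, against 0.352% of the 17332 genes tested (0.0981% higher).

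This result lay close to the threshold. Of the 10 fits that each left out a sample, 2 kept *Prkg2* past it: those without the third male Wiz+/+ brain (edgeR adjusted p = 0.0446) and without the third male WizMommeD30/+ brain (edgeR adjusted p = 0.0314). In the other 8 the log2 fold change was 0.46 to 0.57 and the edgeR adjusted p 0.0523 to 0.153. Its difference between cerebellum and male brain was −0.53 (SE 0.25, edgeR adjusted p = 0.508), so that the genotype effect was not shown to differ between the tissues.

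*Gucy1a2* was variable among the male wildtype brains. It had 19.5, 11.29 and 18.05 CPM in Wiz+/+, the shallowest library being the low sample, and 21.9, 21.59 and 20.44 CPM in WizMommeD30/+ male brains. All 3 mutants were above all 3 wildtype samples, but the wildtype spread was wide (log2 fold change 0.33, SE 0.129, edgeR adjusted p = 0.525). In females the levels overlapped, at 15.51 and 12.3 CPM against 11.2 and 17.8 CPM (log2 fold change 0.06, SE 0.21, edgeR adjusted p = 0.974). Over both sexes the log2 fold change was 0.23 with an interval from −0.07 to 0.53 (edgeR adjusted p = 0.535), and its difference between cerebellum and male brain was 0.14 (SE 0.221, edgeR adjusted p = 0.905).

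*Prkg1* and *Pde5a* showed overlapping genotypes in both sexes. *Prkg1* had 6.757, 4.112 and 7.662 CPM against 7.581, 5.734 and 6.943 CPM in male and 5.999 and 8.207 CPM against 7.852 and 5.113 CPM in female brains (both sexes, log2 fold change −0.01, SE 0.156, edgeR adjusted p = 0.989). *Pde5a* had 32.51, 32.9 and 37.26 CPM against 36.88, 35.88 and 33.3 CPM in male and 34.84 and 28.69 CPM against 34.53 and 36.48 CPM in female brains (both sexes, log2 fold change 0.10, SE 0.0584, edgeR adjusted p = 0.543). The intervals, −0.35 to 0.33 for *Prkg1* and −0.03 to 0.22 for *Pde5a*, leave room for a larger change of the former than of the latter. No marker gene of 15 cell type lists passed the thresholds in any of the brain fits. In female brains, however, the summed levels of 5 forebrain genes were 301.2 to 409 CPM in wildtype and 452.3 to 475.2 CPM in mutant embryos, and those of 5 neural progenitor genes 1188 to 1337 and 1389 to 1467 CPM. In male brains the forebrain sums, 501.5 to 554 and 427.4 to 532.5 CPM, and the progenitor sums, 1209 to 1364 and 1323 to 1382 CPM, overlapped. Sums of pericyte and smooth muscle genes were lower in the mutants of both sexes, without overlap. They were 107.4 to 112.2 and 100.2 to 105.9 CPM in male, and 121.3 to 123.1 and 103.7 to 111.8 CPM in female brains. Sums of Purkinje and granule cell genes were higher in male mutants, without overlap. In females those of astrocyte, microglia, blood and brainstem neuron genes were lower in the mutants, again without overlap. With so few samples per genotype, sums of some of the 15 lists can lie apart by chance, most easily in females. How many would do so was not worked out, so that such a gap alone sets no cell type apart. The part of these cells in the differences of *Nos1* and *Prkg2* was not tested.

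**Figure D3:**
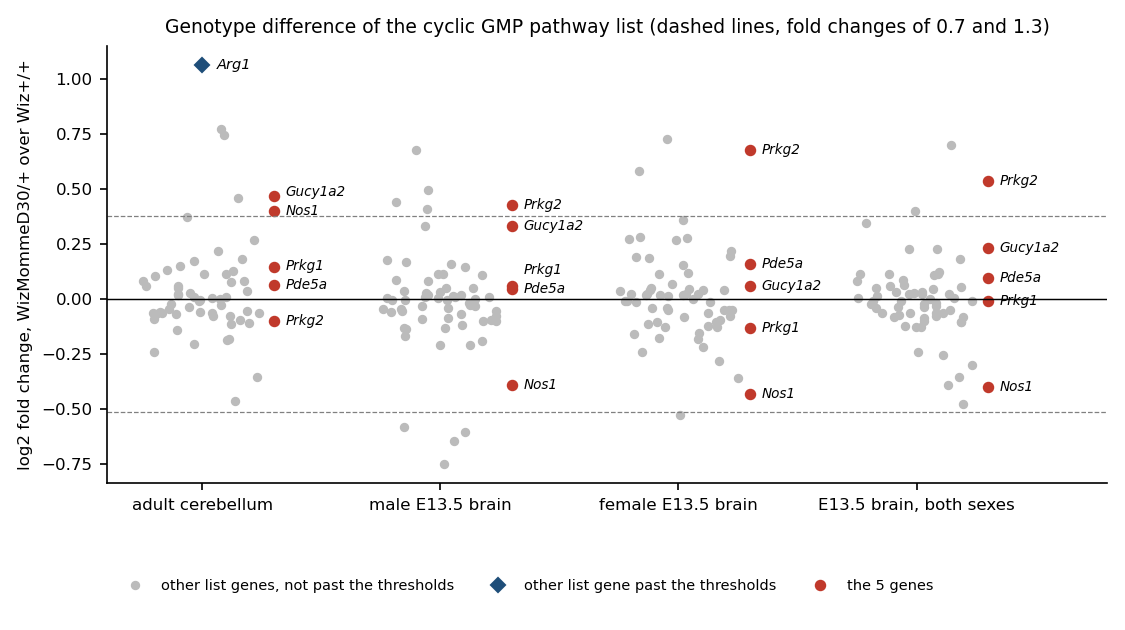
Log2 fold change of WizMommeD30/+ over Wiz+/+ for the list of nitric oxide and cyclic GMP genes in 4 fits, with the 5 genes in red. Grey points are other list genes short of the thresholds, the diamond is *Arg1* (1.06 in cerebellum), and most of each list lies close to 0 (medians of 0.01, −0.00, 0.01 and −0.01).

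Among the remaining list genes in the brains, *Gucy2f*, a receptor guanylyl cyclase of the retina, had the largest log2 fold change over both sexes, 0.70 (SE 0.147, edgeR adjusted p = 0.0632). It was scarce, with 0.7394 ± 0.0757 CPM in wildtype and 1.187 ± 0.0625 CPM in mutant male brains (SD, n = 3). *Calm3* and *Dlg4*, which encode a calmodulin and the scaffold PSD-95 that binds the neuronal synthase, had log2 fold changes of −0.11 and −0.10 (edgeR adjusted p = 0.164 and 0.186). At an unadjusted p under 0.05 there were 16 list genes of 65 in male, 5 of 64 in female and 13 of 65 over both sexes, and 19 of 62 in cerebellum. Over all genes these counts were 1423 of 16848, 1098 of 17152, 2073 of 17332 and 3174 of 15979. DESeq2 passed none of the list in male brain, none in female brain and 1 over both sexes.

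The tissues differed far more than the genotypes, and in opposite directions among the 5 genes. In Wiz+/+ males *Nos1* was 14.9-fold higher in adult cerebellum than in E13.5 whole brain (log2 fold change 3.90, SE 0.0956). No p-value is given for it, since the wildtype cerebellums were also used in choosing *Nos1*. *Pde5a* and *Prkg1* were also higher, by 1.71 (SE 0.056, edgeR adjusted p = 2.06e-13) and 1.27 (SE 0.134, edgeR adjusted p = 3.18e-07) on the log2 scale. *Gucy1a2* fell by 1.79 (SE 0.169, edgeR adjusted p = 9.04e-08) and *Prkg2* fell by 2.31 (SE 0.156, edgeR adjusted p = 1.55e-09). In these samples 69.3% of 16840 genes passed the thresholds, 36.4% higher and 32.9% lower, so that passing them says little by itself. Tissue and age cannot be told apart in this contrast.

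The same contrast in the WizMommeD30/+ males, which are other animals, gave the same directions. The log2 fold changes were 4.71 for *Nos1* (SE 0.0779), 1.73 for *Pde5a* (SE 0.0437), 1.37 for *Prkg1* (SE 0.0936), −1.65 for *Gucy1a2* (SE 0.0769) and −2.83 for *Prkg2* (SE 0.16). For the 4 genes other than *Nos1* the edgeR adjusted p ran from 6.63e-14 for *Pde5a* to 5.07e-09 for *Prkg1*, and 68.8% of 16967 genes passed the thresholds, 35.8% higher and 33% lower. The mutant cerebellums in this fit likewise took part in choosing *Nos1*, so that no p-value is given for it. In both genotypes the ranges of the 2 tissues did not overlap for any of the 5 genes. How many of all genes had ranges apart was not counted, so that this does not set the 5 genes apart.

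Ordered by group mean, *Nos1* was highest in mutant cerebellum, then wildtype cerebellum, and neither overlapped its neighbour. Among the brains, male Wiz+/+, male WizMommeD30/+ and female Wiz+/+ overlapped in turn and female WizMommeD30/+ was below them. *Prkg1* and *Pde5a* had the same 2 cerebellum groups on top, overlapping each other, and 4 brain groups that overlapped in turn. *Gucy1a2* was highest in male mutant brain, above 3 other brain groups that overlapped in turn, and lowest in wildtype cerebellum. *Prkg2* fell into 3 levels whose members overlapped, the mutant brains of both sexes, the wildtype brains and, lowest, the cerebellums. The female brains were taken into the tissue contrast as an alternative, and each of the 5 genes kept its direction and passed the thresholds, *Nos1* again as a description.

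Per length of exons (RPKM), the order of the genes also differed between tissues. In wildtype cerebellum *Nos1* was at 30.7 ± 1.46 RPKM and *Pde5a* at 11.4 ± 0.498, with *Prkg1* at 1.45 ± 0.103, *Gucy1a2* at 0.736 ± 0.11 and *Prkg2* at 0.176 ± 0.0225 (SD, n = 3). In wildtype male brain *Pde5a* was at 3.48 ± 0.268 RPKM, *Gucy1a2* at 2.45 ± 0.659, *Nos1* at 2.02 ± 0.391, *Prkg2* at 0.879 ± 0.0673 and *Prkg1* at 0.569 ± 0.17, with *Gucy1a2* and *Nos1* overlapping. Dividing by the longest transcript in place of all exons put *Gucy1a2* above *Pde5a* in male brain, so that the order of these depends on the length used.

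The balance within each family also differed. Of the summed per-length level of *Nos1*, *Nos2* and *Nos3*, *Nos1* made up 89.7 to 95.2% in the 6 cerebellums and 27.2 to 47.1% in the 10 brains. *Prkg1* made up 87.1 to 92.1% of the 2 kinases in cerebellum and 24.9 to 52.0% in brain. *Gucy1a2* made up 5.43 to 7.22% of the 2 α subunits in wildtype and 7.73 to 9.43% in mutant cerebellum, and 25.8 to 42.4% in brain. These shares were chosen after the values were seen and carry no test. With the longest transcripts *Gucy1a2* made up 7.39 to 12.6% in cerebellum and 32.6 to 50.6% in brain.

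**Figure D4:**
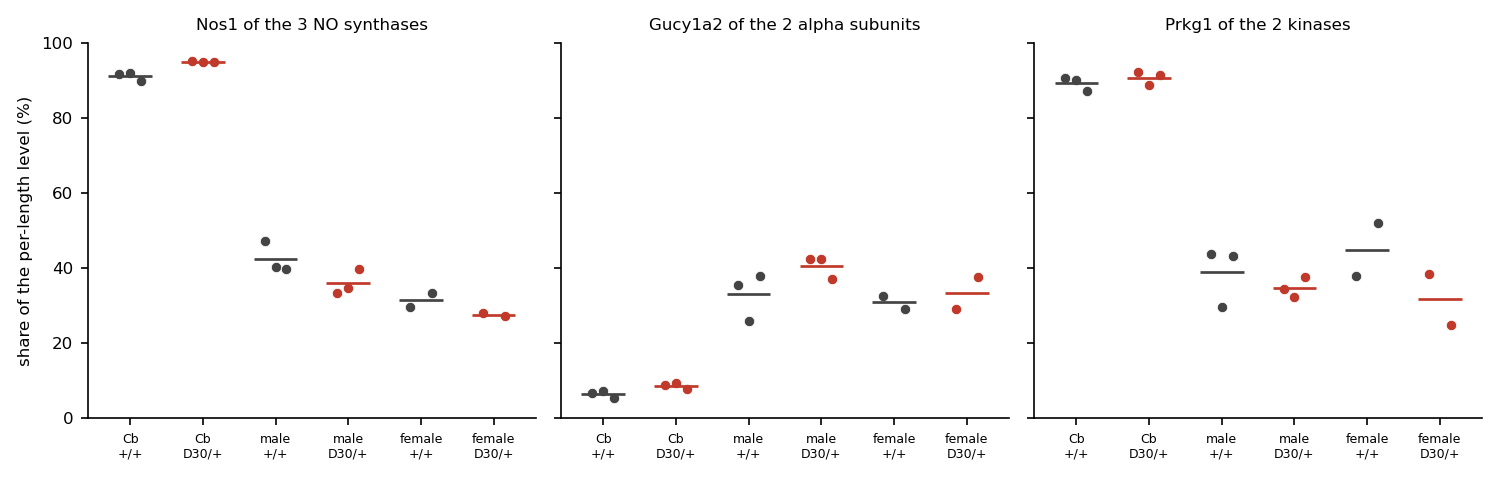
Share of each gene in the per-length level of its family, in percent, by sample (Cb, adult cerebellum; male and female, E13.5 whole brain). Points are samples and lines means, with Wiz+/+ in grey and WizMommeD30/+ in red. *Nos1* and *Prkg1* lie above 87% in cerebellum and at most at 52.0% in brain, and *Gucy1a2* lies below 10% and above 25%.

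Of the 66 list genes tested in both genotypes, 51 passed the thresholds in the same direction in both, 33 higher in cerebellum (*Nos1* among them) and 18 lower, and none in opposite directions. Of all genes tested 69.3% passed in wildtype and 68.8% in mutant males, and the share passing in both was not counted. The counts by role given below are to be read beside these shares. The receptor for nitric oxide split: *Gucy1b1* rose by 1.72 and 1.71 on the log2 scale and *Gucy1a1* by 1.11 and 1.19, in wildtype and mutant males in turn, whereas *Gucy1a2* fell. *Gucy1b2*, a further β subunit, had 1 to 10 reads per cerebellum and 56 to 136 per male brain. Of the other synthases, *Nos2*, the inducible enzyme, fell (−2.53 and −3.38, from 34 to 88 reads per male brain to 2 to 8 per cerebellum), and *Nos3* was short of the thresholds in both genotypes (0.32 and −0.14).

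Targets of the cyclic GMP-dependent kinases held the largest differences. *Itpr1*, the receptor for inositol trisphosphate that is abundant in Purkinje cells, was 4286 ± 229 CPM in wildtype cerebellum and 32.93 ± 0.588 CPM in wildtype male brain, and rose by 7.02 and 6.97 on the log2 scale. *Ppp1r17*, the Purkinje cell phosphatase inhibitor known as G-substrate, rose by 5.23 and 4.91. *Kcnma1*, the large-conductance calcium-activated potassium channel, rose by 2.28 and 2.50, and *Rgs2*, a regulator of G protein signalling, fell (−1.95 and −2.09). *Pln*, which encodes phospholamban, had 20 to 38 reads per cerebellum and 2 to 7 per male brain. Of the 10 targets 4 were higher, 2 were lower and 4 were short of the thresholds, in each genotype.

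Genes for the supply of the synthase went both ways. For its cofactor tetrahydrobiopterin, *Gchfr*, the feedback regulator of the first enzyme, rose by 3.36 and 3.05 and *Qdpr*, which regenerates the cofactor, by 2.11 and 2.05. For arginine, the arginase gene *Arg2* fell (−3.30 and −2.70) and *Ddah2*, which breaks down a natural inhibitor of the synthases, fell (−2.15 and −2.04), whereas *Arg1* rose by 2.05 and 3.77. Of 10 regulators of the synthases 7 were higher in each genotype, among them *Nostrin* (2.51 and 1.99), and 1, *Dynll1*, was lower.

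Other sources and sinks of cyclic GMP also differed. The natriuretic peptide receptor *Npr1* rose by 1.84 and 1.83 and the receptor guanylyl cyclase *Gucy2e* by 3.02 and 2.66, while the clearance receptor *Npr3* fell (−2.09 and −1.93). *Gucy2c* and *Gucy2f* had 0 to 5 reads per cerebellum, against 12 to 54 per male brain. Besides *Pde5a*, the phosphodiesterase *Pde1c* rose by 2.07 and 1.78, and *Pde11a* fell (−2.83 and −2.02). The channel subunit *Cngb1* fell (−1.97 and −2.20) at 3 to 10 reads per cerebellum, and the exporter *Abcc4* rose by 1.59 and 1.62. Each of these, where a fold is given, passed the thresholds in both genotypes.

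**Figure D5:**
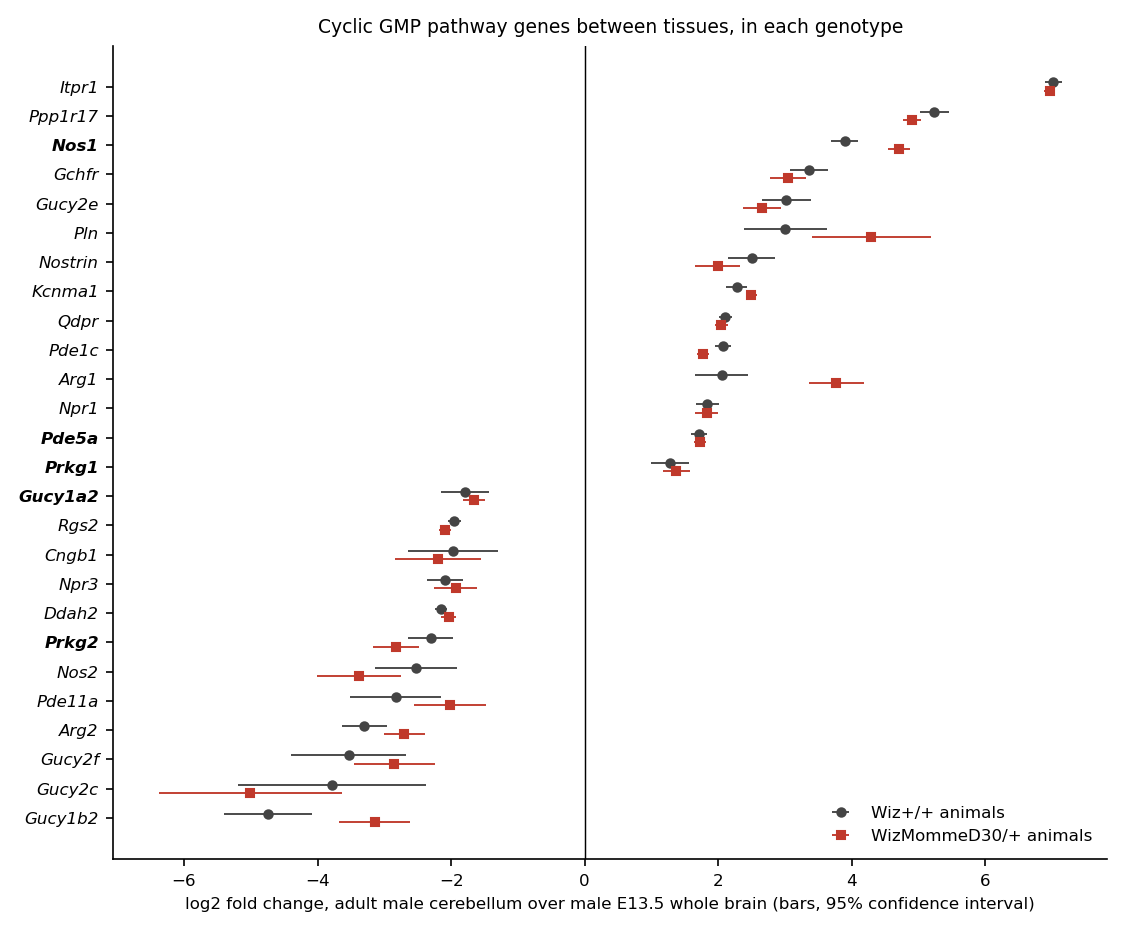
Log2 fold change of adult male cerebellum over male E13.5 whole brain, with 95% confidence intervals, for list genes of the largest difference and, in bold, the 5 genes. Grey circles are Wiz+/+ and red squares WizMommeD30/+ animals. The genotypes lie on the same side of 0 for every gene shown, with *Nos1* at 3.90 and 4.71 and *Prkg2* at −2.31 and −2.83.

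Most markers of cerebellar cells moved with this contrast. All 5 Purkinje cell genes, all 5 granule cell genes and 4 of 6 interneuron genes were higher in cerebellum in both genotypes. Of the interneuron genes 1 was lower in each genotype, and all 5 forebrain genes were lower. Of 5 genes of pericytes and smooth muscle, which also express *Pde5a* and *Prkg1*, 3 were higher in wildtype and 4 in mutant males and 1 was lower. The part of these cells in the differences of the 5 genes was not tested.

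The genes whose pattern was most like that of *Nos1* were sought among 15183 genes by the root mean square difference of log2 CPM over the 16 samples, each gene centred on its own mean. The nearest were *Gas7* (0.166), *Bend6* (0.185), *Dync1i1* (0.196), *Ephx1* (0.196) and *Pcp4* (0.199), and their differences between mutant and wildtype cerebellum ran from −0.07 for *Dync1i1* to 0.17 for *Gas7*, against 0.40 for *Nos1*. Centred within each of the 3 experiments, which removes the difference between tissues, the nearest were *Nxph3* (0.114), *Rasgef1a* (0.125), *Fam163b* (0.127), *Cacna1i* (0.129) and *Prkce* (0.129). Their differences in cerebellum ran from 0.05 for *Prkce* to 0.30 for *Cacna1i*, a T-type calcium channel. All 5 were negative in male and female brain, as *Nos1* was (−0.365 and −0.43). They were picked for likeness to *Nos1* in these same samples, so that the choice favours these signs and nothing further is read from them.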

How the data were processed

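Gene counts of 16 RNA-seq libraries were used. Per the study's methods, total RNA was extracted with a phenol reagent, TruSeq libraries were sequenced as single-end reads, reads were mapped to mm10 with TopHat 2.0.11, and exonic reads were counted with htseq-count 0.6.1. What the authors deposited is 1 file per library of unnormalized read counts by Ensembl gene. The strand setting, the overlap mode and the annotation release are not given in the sources used here, so reads over near-identical or overlapping genes may be split or lost. The 3 ChIP-seq samples were not analysed here.

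For each comparison only its own samples entered the fit, made with edgeR 4.0.16 under R 4.3.3 (TMM, filterByExpr with a minimum count of 10, quasi-likelihood test, Benjamini-Hochberg adjustment over all genes tested). The thresholds were those of the study, an adjusted p up to 0.05 with a fold change below 0.7 or above 1.3. SE were derived from the fold change and the F statistic. Exon lengths and positions came from GENCODE M21, and RPKM used the union of exons. Likeness to *Nos1* used a prior count of 2. Start windows came from RefSeq, and that of Nos1-206 from the genome. Replicates were biological. The median SE over genes was 0.0577 in cerebellum, 0.0646 in male and, with 2 samples per genotype, 0.095 in female brain. Replicate numbers did not pair the samples.

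The members and lists were chosen with earlier results of these data known. Named were the 5 members, the list genes past the thresholds or with the smallest p (up to 10 per genotype comparison), and the 24 list genes with the largest tissue difference passing in both genotypes (1 is not reported here), and the 5 genes most like *Nos1* by each of 2 measures. *Gucy1a1*, *Gucy1b1*, *Nos3*, *Dynll1* and *Abcc4* in the tissue contrast were named after their values were seen. The fits were tested on simulated counts. Alternatives were DESeq2 1.42.0 (size factors; Wald test), total counts, other filters, no fold threshold, a replicate block, each sample left out, and, chosen after seeing the data, the longest transcript for shares. Python 3.11.15 and pandas 2.3.3 were used for the rest.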

Additional observations from a re-analysis of the deposited data

Results flagged for a closer look

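The genotype difference of *Arg1* differed between tissues by a test of the difference itself: it was 1.71 higher on the log2 scale in cerebellum than in male E13.5 brain (SE 0.305, edgeR adjusted p = 0.0228). In cerebellum *Arg1* was higher in 3 of 3 mutants than in every wildtype sample (5.932 ± 0.748 against 2.844 ± 0.211 CPM, SD, n = 3). In male brain it was at 0.4393 ± 0.14 CPM in mutants and 0.7259 ± 0.153 in wildtype embryos, from 12 to 30 reads per sample, and its log2 fold change there, −0.65 (SE 0.29), had an edgeR adjusted p of 0.584. Blood markers were higher in the same mutant cerebellums, and their part in this difference was not tested. Of the 12 fits that each left out a sample, 9 kept *Arg1* past the thresholds (1.45 to 1.9, edgeR adjusted p 0.0175 to 0.0801). It was not past them without the third Wiz+/+ cerebellum (edgeR adjusted p = 0.0592), the third male Wiz+/+ brain (edgeR adjusted p = 0.0575) or the second male WizMommeD30/+ brain (edgeR adjusted p = 0.0801). In cerebellum alone it passed in all 6 such fits. *Nos1* aside, no other of the 67 list genes passed in this test, against 0.173% of 17337 genes.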

How the results depend on the processing

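Outside the fits that left out a sample, 297 values for the members and list counts were little changed and 8 were not. Little changed means that tested values kept their side of the thresholds, and their direction where either fit passed them. Untested ones moved by less than the replicate SD, and list counts stayed within 1.5 times. Values near 0 that passed in neither fit could change sign, as *Prkg1* did over both sexes (−0.0141 to 0.0177). These 297 include *Gucy1a2* in cerebellum, which has no test here and was not past the thresholds by DESeq2, where the list count was 2. With no fold threshold 6 list genes passed in cerebellum in place of 3. With no filter on low counts 2 list genes passed in male brain and 2 over both sexes, and *Prkg2* passed in male brain (0.433, edgeR adjusted p = 0.0175). In the genotype by tissue test DESeq2 passed 1 list gene in place of 2. Replicate numbers are shared between genotypes but do not pair the samples (correlations of same-numbered samples −0.13 to 0.0142). With the replicate block 0 list genes passed over both sexes, *Prkg2* being at 0.534 (edgeR adjusted p = 0.165), and 0 passed in the genotype by tissue test, *Arg1* being at 1.68 (edgeR adjusted p = 0.0787). The block changed no other call of a member that has a test. The cause of these changes was not tested.

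Leaving out each sample gave 1 to 4 list genes in cerebellum (1 without the third Wiz+/+ cerebellum), 0 to 3 in female brain, 0 to 1 over both sexes and 0 to 2 in the genotype by tissue test. *Nos1* ranged from −0.517 to −0.344 in female brain and from 0.58 to 0.956 in the genotype by tissue test, and *Prkg2* from 0.507 to 0.882 in female brain and from 0.455 to 0.578 over both sexes. Both passed in female brain only without the first Wiz+/+ sample (edgeR adjusted p = 0.045 and 0.0285), which leaves a lone wildtype sample assumed to vary like the others. The tissue differences of the 5 genes passed in every alternative, *Nos1* being given without a test. Scaling by total counts moved the median of all genes in the tissue contrasts from −0.02 to −0.23 and −0.24, and the share of higher calls from 52.5 to 43.3% in wildtype and from 52.1 to 42.7% in mutant males, and the 5 genes kept their directions. CPM without TMM factors was 0.909 to 1.06 times that printed, and RPKM by the longest transcript 1.08 to 2.06 times. These moved 10 of 30 CPM, 23 of 30 RPKM and 12 of 18 share means by more than 1 SD. A prior count of 0.5 named the same 5 genes as most like *Nos1* by both measures. Depth limits *Prkg2* in cerebellum most.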
